A study of Mus musculus with 10 samples.

Results

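The heat shock genes described here encode chaperones of the cytosol, the nucleus and the mitochondrial matrix, outside the endoplasmic reticulum. The 10 genes were chosen by name, but with earlier results of these data known. Their counts below, set beside shares over all probe sets, thus describe the list and do not test it. The 10 are Hsph1, Hspa8, Hspa4, Hspa1b, Hsp90aa1, Hsp90ab1, Dnajb1, Dnaja1, Hspd1 and Hspe1. The array annotation used here gave 1 of these names to 26 of 45101 probe sets, the groups of short oligonucleotides that each read 1 or more transcripts. Those 26 covered 9 of the genes, of 18193 genes with a probe set of their own, and Hsp90ab1 was not analysed here. A probe set was tested if it was brighter than the median of the whole table, 30.5 intensity units, on at least 2 of the 10 arrays. By that rule 21 of the 26 probe sets and 8 of the genes were tested, and each of the 21 lay above that median on all 10 arrays.

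RNA came from mouse erythroleukemia (MEL) cells, a virus-transformed line of red cell precursors, and was read on Affymetrix mouse expression arrays, 2 for each of 5 lines. The subclones, 4 in number (FBB1.5 and FBB1.7 as well as FBB1.10 and FBB1.11), stably carry BCL11A, a zinc finger repressor of fetal and embryonic globin genes, with a FLAG and biotin tag, and give 8 arrays. The parental line, MelBirA, gives the other 2. The bacterial biotin ligase BirA is present in all 5 lines, the parental one included. Each subclone is 1 line, the promoter of the construct is not named in the labels, and no label says whether separate cultures gave the 2 arrays of each line. The p-values below thus rest on array-to-array spread alone, and that may be technical. The fit with a random block for each line is the exception, since it also takes in spread between subclones.

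Array medians lay between 29.6 and 31.6 intensity units. Of 7 Bcl11a probe sets 6 were tested, and 1 of them rose in 3 subclones, with 62.1 and 95.8 on FBB1.5 arrays, 233 and 165 on FBB1.10 arrays and 245 and 181 on FBB1.11 arrays. The same probe set read 62.4 and 65.0 in FBB1.7 (adjusted p = 0.071) and 39.7 and 35.9 in parental cells. A brighter Bcl11a probe set fell by 0.47 in FBB1.7 (adjusted p = 0.015). The actin control, read near its 3' and its 5' end to gauge how intact the RNA was, gave a 3' to 5' ratio of 1.47 in array 1 of FBB1.5 and 1.80 in array 2 of parental cells, against 1.06 to 1.22 on the other 8. Of 10 measured erythroid markers 7 were above the table median on all arrays, while Hba-a1 and Slc4a1 were above it on none. The summed intensity of 10 mast cell and basophil markers was 6595 and 5197 on FBB1.5 arrays, 1150.5 and 1027 on FBB1.7 arrays, 2799 and 2259.7 on FBB1.10 arrays and 1869 and 1876 on FBB1.11 arrays, against 6860.1 and 5697 in parental cells. Mcpt1, Tpsab1 and Fcer1a of that list were above the median on no array, and the part of these differences in the results below was not tested.

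Heat shock proteins bind unfolded or partly folded polypeptides and release them in cycles driven by ATP. Hspa8 is the constitutive HSP70 of the cytosol and Hspa1b a stress-induced one, the J proteins Dnajb1 and Dnaja1 hand substrates to HSP70 and stimulate its ATPase, and the HSP110 proteins Hsph1 and Hspa4 exchange its nucleotide. Hsp90aa1 and Hsp90ab1 are the cytosolic HSP90s, which mature kinases and steroid receptors, and Hspd1 (HSP60) with its lid Hspe1 (HSP10) forms the folding chamber of the mitochondrial matrix. In red cell precursors, human HSP70 is known to protect the transcription factor GATA1, and heat shock factor 1 (HSF1) induces most of these genes by binding repeats of the heat shock element in their promoters.

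Promoter windows of 250 bases before to 50 bases after the start were available from RefSeq (assembly GRCm38.p6) for 7 of the 10 genes. They were searched on both strands for 2 heat shock units in opposite orientation (GAANNTTC or TTCNNGAA) and for 3 units (GAANNTTCNNGAA or TTCNNGAANNTTC), and a stretch of 3 units always holds the shorter ones. The 7 genes have 12 windows, some of which overlap. A match to 2 units was found in 6 of the 12 windows, of 5 genes, against 15.1% of all 32851 mouse windows. A stretch of 3 units was found in 4 of the 12, both of Hsph1 and 1 each of Hspd1 and Hspe1, against 0.603% of all windows. The Hsph1 windows overlap and hold the same stretch, and the Hspd1 and Hspe1 windows share theirs, so the 4 windows are not separate sites. Hspa1b and Dnaja1 had 1 match to 2 units each, and the windows of Hspa4 and Dnajb1 held neither form. A match is a description of letters and not a bound site. Windows of Hsph1, Hspd1 and Dnaja1 are printed because these genes moved in different directions in the subclone FBB1.7, 5' to 3' on the gene's strand, with every match in capitals. For each gene 1 window with a match is printed, and the other windows of Hspd1 and Dnaja1 held no match. The printed window of Hsph1 is chr5:149636266-149636565 on the minus strand, that of Hspd1 is chr1:55087883-55088182 on the minus strand, and that of Dnaja1 is chr4:40722218-40722517 on the plus strand.
Hsph1: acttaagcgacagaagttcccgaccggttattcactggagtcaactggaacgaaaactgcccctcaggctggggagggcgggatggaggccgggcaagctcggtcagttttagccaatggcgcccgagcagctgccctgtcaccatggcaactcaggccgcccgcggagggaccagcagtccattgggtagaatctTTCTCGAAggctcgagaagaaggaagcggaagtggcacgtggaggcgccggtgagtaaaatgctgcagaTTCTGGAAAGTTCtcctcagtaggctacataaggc
Hspd1: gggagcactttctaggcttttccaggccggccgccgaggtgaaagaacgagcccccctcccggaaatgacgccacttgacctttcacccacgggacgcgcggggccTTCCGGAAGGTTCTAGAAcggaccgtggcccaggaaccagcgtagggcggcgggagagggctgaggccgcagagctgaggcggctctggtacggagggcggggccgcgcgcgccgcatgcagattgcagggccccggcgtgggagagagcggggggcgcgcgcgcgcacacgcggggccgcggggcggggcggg
Dnaja1: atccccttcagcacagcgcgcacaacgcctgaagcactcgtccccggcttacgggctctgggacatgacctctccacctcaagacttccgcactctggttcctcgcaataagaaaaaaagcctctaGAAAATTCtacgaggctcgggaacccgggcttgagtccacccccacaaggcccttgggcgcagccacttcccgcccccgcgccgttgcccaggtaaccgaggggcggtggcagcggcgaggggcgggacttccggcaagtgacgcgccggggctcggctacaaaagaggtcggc
Hspd1 and Hspe1 are divergent neighbours, and the printed Hspd1 window shares 285 bases with the Hspe1 window, chr1:55087898-55088197 on the plus strand. Its capitals, which start 144 bases before the Hspd1 start and 89 bases before the Hspe1 start, therefore count for both genes. In the printed Hsph1 window the stretch of 3 units lies after the annotated start, from base 15, and the match to 2 units alone starts 54 bases before it.

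The first question of the design is which of these genes differ between cells with tagged BCL11A and the parental line. In the fit with a random block for each line, 0 of the 21 member probe sets passed in limma, and 0 of all 25061 did (0% called). That fit allows for the likeness of arrays of a line by 1 correlation shared by all probe sets. It still counts arrays rather than lines, and it cannot separate the tag from other differences to the parental line. Over all probe sets 2190 had an unadjusted p under 0.05, and the smallest adjusted p was 0.159. Of the members 4 of 21 had an unadjusted p under 0.05, the smallest being that of Hspd1, 0.0014. When the 4 subclones were instead taken as fixed lines, with the spread taken from arrays of the same line, their mean differed from parental in 5 of 21 probe sets, against 3.54% called over all probe sets (1.98% higher and 1.56% lower). Hspd1 and Hsp90aa1, by 2 of its probe sets, were higher, and Hsph1 and Hspa8, by 1 probe set each, were lower. Without FBB1.7 this count was 1 of 21, without array 1 or 2 of parental 3 of 21, and without FBB1.5 9 of 21. It was 2 with the actin ratio as covariate and 0 without an intensity trend. The genes are described by line below.

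Set against the parental line one at a time, the subclones ranked FBB1.7, FBB1.10, FBB1.5 and FBB1.11 by the number of member probe sets called. In FBB1.7 14 of 21 probe sets passed, 5 higher and 9 lower, against 10.1% called over all probe sets (4.55% higher and 5.5% lower). Those 14 belonged to 7 of the 8 genes, all but Hspe1. In FBB1.10 4 of 21 passed, 2 higher and 2 lower, against 1.8% called (1.08% higher and 0.718% lower). In FBB1.5 1 of 21 passed, against 2.02% called, and in FBB1.11 0 of 21 passed, against 0.188% called, while 6 of 21 had an unadjusted p under 0.05 there, as did 2956 of all 25061. The FBB1.7 count was 8 without array 1 of FBB1.7, 9 without array 2 and 10 without array 2 of parental. It was 6 with the actin ratio as covariate and 6 without an intensity trend, settings that gave 1 and 0 calls in FBB1.10. The FBB1.10 count was 1 without array 1 of FBB1.10 and 0 without array 2, and the FBB1.5 count was 0 without either array of FBB1.5 or array 1 of parental. The members are bright, and bright probe sets were called more often: among those with a mean intensity over 200, 13 of 18 member probe sets passed in FBB1.7 against 22.4% called, and 4 of 18 passed in FBB1.10 against 5.03% called. With the brightest probe set standing for each gene, 5 of 8 genes passed in FBB1.7, 2 higher and 3 lower, against 10.7% called over 12502 genes (4.28% higher and 6.38% lower). The median log2 difference of the 8 genes was 0.06 in FBB1.7, against a median of -0.02 over all genes, with changes going both ways. The plot of differences by line shows this split.

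**Figure D1:**
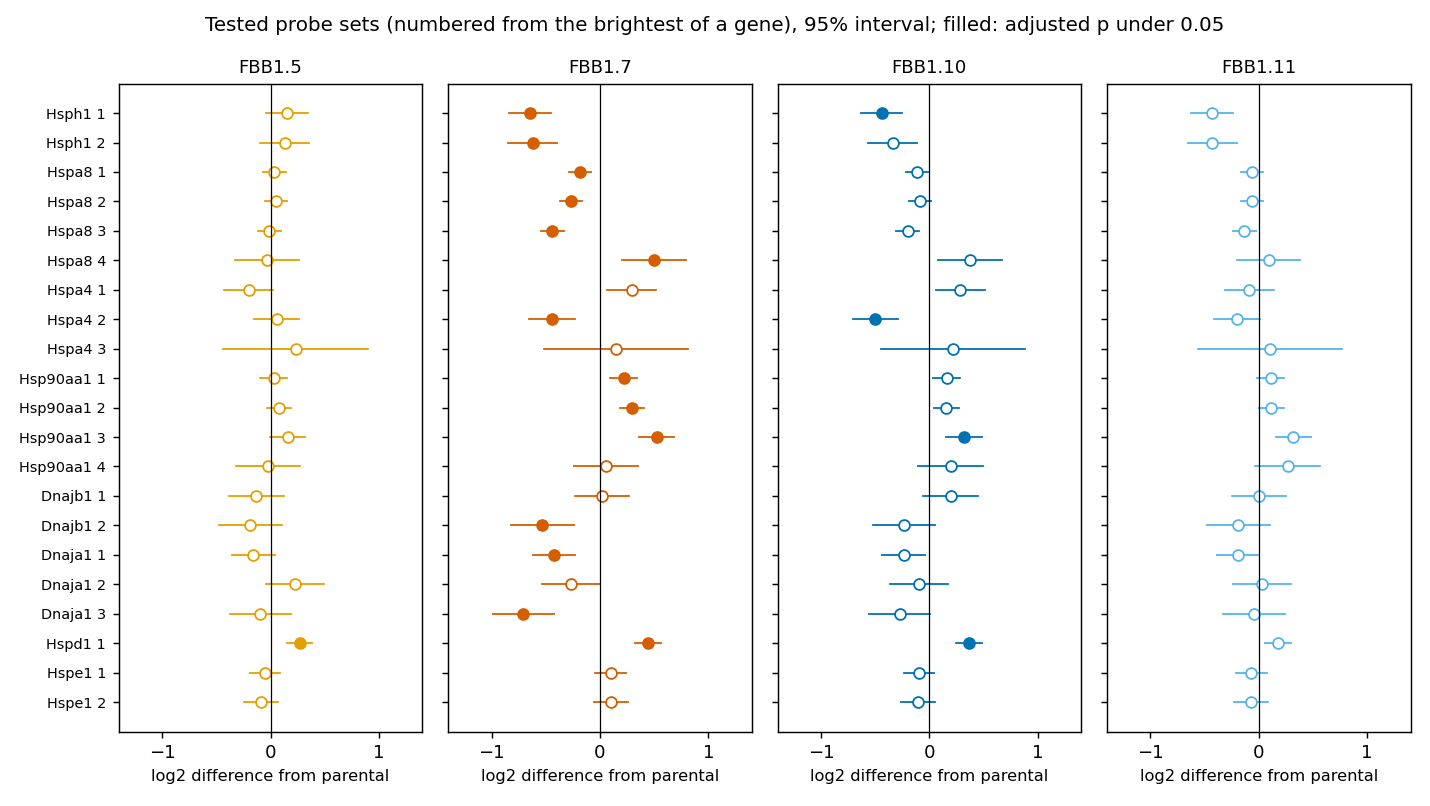
Difference from parental on the log2(intensity + 16) scale for the 21 tested member probe sets in each subclone, numbered from the brightest of each gene, with 95% intervals from limma's fit of 5 line means and filled points where the adjusted p passed 0.05. In FBB1.7 Hsph1, 3 of the Hspa8 probe sets and Dnaja1 lie left of 0 while Hsp90aa1 and Hspd1 lie right of it, and in FBB1.11 no point is filled.

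Hsph1 (chromosome 5), the HSP110 protein that releases nucleotide from HSP70, read lower on the arrays of 3 subclones than on those of FBB1.5 and parental cells. Its brighter probe set, 1425993_a_at, read 1234 and 1045 on FBB1.5 arrays, 639 and 658 on FBB1.7 arrays, 762 and 735 on FBB1.10 arrays and 767 and 739 on FBB1.11 arrays, against 1049.8 and 993 in parental cells. All 6 arrays of FBB1.7, FBB1.10 and FBB1.11 lay below both parental arrays, and the FBB1.5 arrays overlapped parental. On the log2 scale it fell by 0.64 ± 0.09 (SE) in FBB1.7 (limma adjusted p = 0.00047), which is 0.641 times the parental level, and by 0.44 ± 0.09 in FBB1.10 (adjusted p = 0.024). In FBB1.11 the difference was -0.43 ± 0.09 with an adjusted p of 0.072, which missed the threshold although its size was close to that of FBB1.10, and in FBB1.5 it was 0.15 ± 0.09 (adjusted p = 0.48). The FBB1.10 call was lost under 5 of 22 alternatives, among them without array 1 or array 2 of FBB1.10 (adjusted p = 0.12 and 0.15), and the FBB1.7 call held under each of 22. The summed mast cell markers given above were likewise lower in these 3 subclones than in FBB1.5 and parental cells, and their part in the Hsph1 and Hspa8 differences was not tested.

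The dimmer Hsph1 probe set, 1423566_a_at, read 698 and 629 on FBB1.5 arrays, 379.7 and 394 on FBB1.7 arrays, 499 and 451 on FBB1.10 arrays and 456 and 432 on FBB1.11 arrays, against 659 and 553 in parental cells. FBB1.7 was the lowest line and FBB1.5 the highest in both probe sets, while FBB1.10 and FBB1.11 changed places. This one fell by 0.62 ± 0.11 in FBB1.7 (adjusted p = 0.0019), and its differences of -0.34 in FBB1.10 (adjusted p = 0.13) and -0.43 in FBB1.11 (adjusted p = 0.11) did not pass. The mean of the 4 subclones was lower than parental in the brighter probe set, at -0.34 ± 0.07 (adjusted p = 0.018). That call was lost without array 1 of parental (adjusted p = 0.077), without array 2 of parental (0.058) and without FBB1.7 (0.18), and once the actin ratio entered as a covariate (0.17).

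Hspa8 (chromosome 9), the constitutive HSP70 that folds new proteins and uncoats clathrin vesicles, was lower in FBB1.7 by each of its 3 bright probe sets. Probe set 1420622_a_at read 6076 and 6113 on FBB1.5 arrays, 4529.8 and 4531 on FBB1.7 arrays, 5379 and 5317 on FBB1.10 arrays and 5739 and 5458 on FBB1.11 arrays, against 6389 and 5907 in parental cells. The FBB1.7 pair was below every other array, and the 6 arrays of FBB1.7, FBB1.10 and FBB1.11 were below both parental arrays. It fell by 0.44 ± 0.05 in FBB1.7 (adjusted p = 0.00012, 0.738 times parental), a call that held under each of 22 alternatives, while -0.20 ± 0.05 in FBB1.10 did not pass (adjusted p = 0.057).

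The 2 brighter Hspa8 probe sets showed smaller differences in the same direction. Probe set 1455789_x_at read 11192 and 10493 on FBB1.5 arrays, 9447 and 9131 on FBB1.7 arrays, 9524 and 10056 on FBB1.10 arrays and 10189 and 10031 on FBB1.11 arrays, against 11008 and 10146 in parental cells, and fell by 0.19 ± 0.05 in FBB1.7 (adjusted p = 0.023). It was no longer called without array 1 of parental (adjusted p = 0.12), array 1 of FBB1.7 (0.073) or array 2 of FBB1.7 (0.15). Probe set 1420623_x_at fell by 0.26 ± 0.05 in FBB1.7 (adjusted p = 0.0029), with 7491 and 7429 in FBB1.7 against 9427 and 8514 in parental cells. Names ending in _x_at mark probe sets whose oligonucleotides may also match other transcripts, so near copies of Hspa8 may contribute to both. The fourth probe set, 1431182_at, was dim and went the other way, rising by 0.50 ± 0.14 in FBB1.7 (adjusted p = 0.033), with 105 and 109 in FBB1.7 against 69.8 and 71.9 in parental cells. That call was lost when any 1 array of FBB1.7 or parental was left out, at adjusted p = 0.087 to 0.16, and which Hspa8 transcript this probe set reads is not known here.

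Hspa4 (chromosome 11), the other HSP110 protein in the list, was read by probe sets that disagreed. The brightest, 1416146_at, read 508 and 478 on FBB1.5 arrays, 699 and 701 on FBB1.7 arrays, 764.5 and 633 on FBB1.10 arrays and 542 and 527 on FBB1.11 arrays, against 526.5 and 613 in parental cells. Its 4 arrays of FBB1.7 and FBB1.10 were the highest of the 10, but the differences from parental of 0.29 ± 0.11 in both lines did not pass (adjusted p = 0.097 and 0.20). Probe set 1435194_at ran the opposite way, with 531 and 530.2 on FBB1.5 arrays, 371 and 371 on FBB1.7 arrays, 362 and 352 on FBB1.10 arrays and 418 and 468 on FBB1.11 arrays, against 481 and 541 in parental cells. It fell by 0.44 ± 0.10 in FBB1.7 (adjusted p = 0.011) and by 0.50 ± 0.10 in FBB1.10 (adjusted p = 0.021). Both calls were lost without array 2 of parental, at adjusted p = 0.081 and 0.12, and without either array of the subclone concerned, at 0.072 to 0.13. Another, dim probe set, 1416147_at, ranged from 55.9 to 128 over the 8 tagged arrays, against 112 and 50.5 in parental cells, and no direction for the Hspa4 gene as a whole can be given.

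Hspa1b (chromosome 17), the stress-induced HSP70, stayed at or below 26.0 intensity units by all 3 of its probe sets on every array of all 5 lines. It was therefore below the table median throughout and was not tested. Probe set 1427126_at read 13.4 to 26.0 on the 8 tagged arrays, with a median of 23.3, against 21.4 and 25.6 in parental cells, and the groups overlapped. Probe set 1452318_a_at read 6.80 to 18.4 on the tagged arrays against 2.17 and 4.77 in parental cells, without overlap but far below the level at which differences were tested. Hspa1a, a near-identical copy, read 4.68 to 13.9. The remaining untested probe sets were 1 of Hspa4, at 1.67 or below, and 1 of Hsp90aa1, at 14.1 or below.

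**Figure D2:**
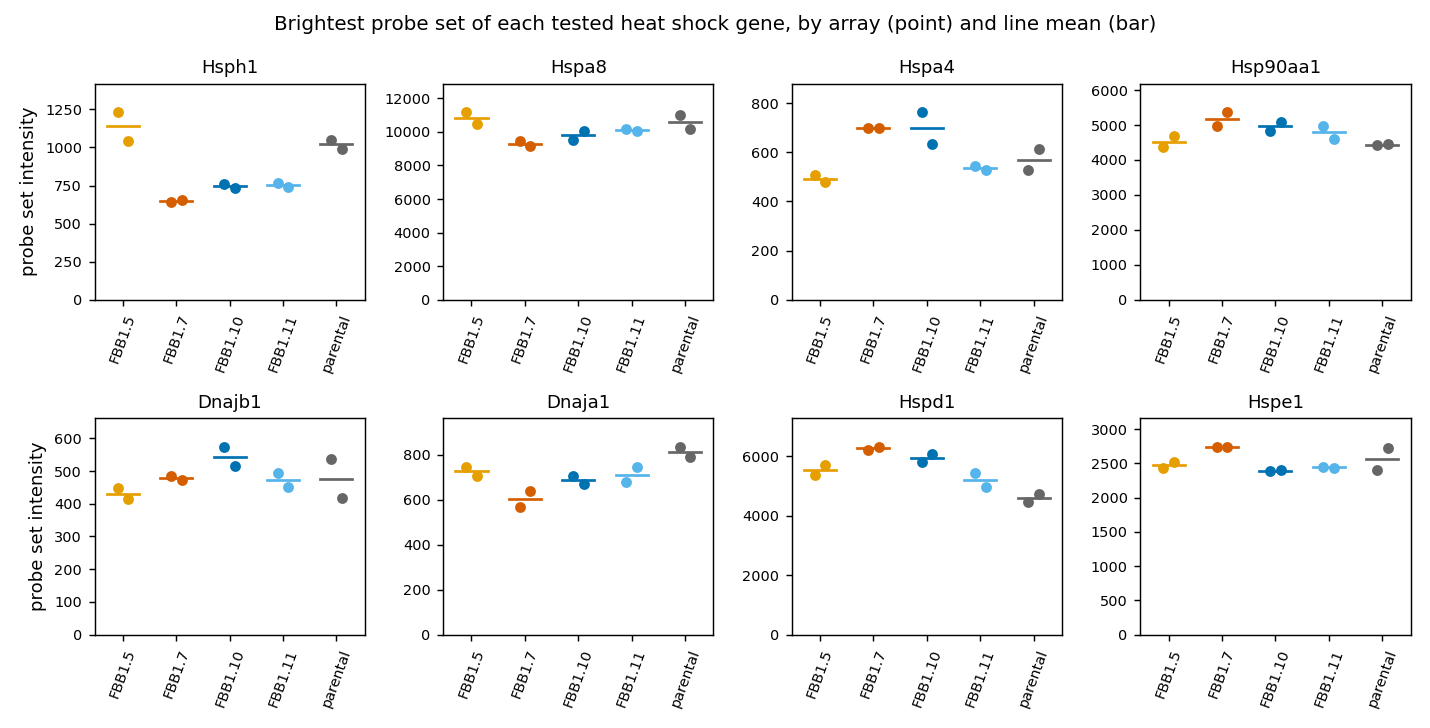
Intensity on each of the 10 arrays for the brightest probe set of the 8 tested genes, with 2 points and their mean for each subclone and, at the right, for parental. Hsph1 sits at 639 to 767 in FBB1.7, FBB1.10 and FBB1.11 against 993 to 1049.8 in parental cells, and all 8 tagged arrays of Hspd1 lie above the parental pair.

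Of the J proteins, Dnaja1 (chromosome 4), a farnesylated partner of cytosolic HSP70, was lower in FBB1.7. Its brightest probe set, 1416288_at, read 747 and 707 on FBB1.5 arrays, 568 and 639 on FBB1.7 arrays, 704 and 669 on FBB1.10 arrays and 679 and 744 on FBB1.11 arrays, against 837 and 789 in parental cells. All 8 tagged arrays lay below both parental arrays. It fell by 0.42 ± 0.09 in FBB1.7 (adjusted p = 0.0091, 0.746 times parental), and the differences of -0.16 in FBB1.5, -0.24 in FBB1.10 and -0.19 in FBB1.11 did not pass (adjusted p = 0.46, 0.22 and 0.44). A dimmer Dnaja1 probe set, 1459835_s_at, read 241 and 212 on FBB1.5 arrays, 131 and 154 on FBB1.7 arrays, 182 and 215 on FBB1.10 arrays and 211 and 259.9 on FBB1.11 arrays, against 246 and 238 in parental cells. It fell by 0.71 ± 0.13 in FBB1.7 (adjusted p = 0.0036), and the FBB1.7 pair was again lowest. Without array 1 of FBB1.7 neither Dnaja1 call passed, at adjusted p = 0.13 and 0.060, and once the actin ratio entered the fit they stood at 0.070 and 0.068. The remaining probe set, 1460179_at, was 0.27 lower in FBB1.7 and did not pass (adjusted p = 0.21), with 217 and 256 in FBB1.7 against 283 and 290.5 in parental cells. It read 379 and 300 on FBB1.5 arrays, both above parental, 252 and 284 on FBB1.10 arrays and 286.5 and 300 on FBB1.11 arrays.

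Dnajb1 (chromosome 8), the main inducible HSP40, gave probe sets that did not move together. The brighter one, 1416756_at, read 449 and 413 on FBB1.5 arrays, 484 and 474 on FBB1.7 arrays, 575 and 514 on FBB1.10 arrays and 495 and 453 on FBB1.11 arrays, against 537 and 416 in parental cells, and no subclone passed. Its difference in FBB1.7 was 0.02, with a 95% interval of -0.23 to 0.27. The dimmer one, 1416755_at, read 359 and 255 on FBB1.5 arrays, 222 and 248 on FBB1.7 arrays, 301 and 284 on FBB1.10 arrays and 299 and 307 on FBB1.11 arrays, against 331 and 363 in parental cells. It fell by 0.53 ± 0.14 in FBB1.7 (adjusted p = 0.022). That call was lost without array 2 of parental (adjusted p = 0.11), array 1 of FBB1.7 (0.18) or array 2 of FBB1.7 (0.063), and once the actin ratio entered the fit the difference shrank to -0.28 (0.43).

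Hsp90aa1 (chromosome 12), the inducible cytosolic HSP90, was higher in FBB1.7 by each of its 3 bright probe sets. Probe set 1426645_at read 3054 and 3648 on FBB1.5 arrays, 4241 and 4373 on FBB1.7 arrays, 3694 and 3776 on FBB1.10 arrays and 3771 and 3694 on FBB1.11 arrays, against 3176 and 2814 in parental cells. The FBB1.7 pair was highest, 7 of the 8 tagged arrays exceeded both parental arrays, and array 1 of FBB1.5 lay between them. It rose by 0.52 ± 0.08 in FBB1.7 (adjusted p = 0.00061, 1.44 times parental) and by 0.32 ± 0.08 in FBB1.10 (adjusted p = 0.046). In FBB1.11 the same difference of 0.32 ± 0.08 had an adjusted p of 0.11, and FBB1.5 stood at 0.16 (adjusted p = 0.35). The FBB1.7 call held under each of 22 alternatives, while the FBB1.10 call was lost under 14 of 22, among them without array 2 of parental (difference 0.23, adjusted p = 0.25), and without either array of FBB1.7, FBB1.10 or FBB1.11, at 0.072 to 0.22.

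The other bright Hsp90aa1 probe sets differed less between lines. Probe set 1438902_a_at read 4378 and 4649.6 on FBB1.5 arrays, 5173 and 5328 on FBB1.7 arrays, 4689 and 4848 on FBB1.10 arrays and 4664 and 4615 on FBB1.11 arrays, against 4433 and 4128 in parental cells, and rose by 0.29 ± 0.05 in FBB1.7 (adjusted p = 0.0029). Probe set 1437497_a_at, the brightest, read 4378 and 4673 on FBB1.5 arrays, 4960.2 and 5377 on FBB1.7 arrays, 4827 and 5095 on FBB1.10 arrays and 4979 and 4601 on FBB1.11 arrays, against 4427 and 4446 in parental cells. Its rise of 0.22 ± 0.06 in FBB1.7 (adjusted p = 0.029) was 0.08 after quantile normalization (0.43). It was also lost without array 1 of parental (0.060), array 2 of parental (0.070) or array 2 of FBB1.7 (0.23). The mean of the 4 subclones was higher than parental in 1426645_at by 0.33 ± 0.06 (adjusted p = 0.0084) and in 1438902_a_at by 0.16 ± 0.04 (adjusted p = 0.049). Without array 2 of parental the adjusted p of these was 0.12 and 0.40, without FBB1.7 it was 0.078 and 0.27, and the second was lost under 18 of 26 alternatives, 7 of them with 1 tagged array left out (0.060 to 0.095). The dim probe set 1433251_at ranged from 84.2 to 112 on the tagged arrays, against 105 and 75.2 in parental cells, and did not pass.

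Hspd1 (chromosome 1), the mitochondrial chaperonin HSP60, was higher in 3 subclones and was the only member called in FBB1.5. Its single probe set, 1426351_at, read 5368 and 5711 on FBB1.5 arrays, 6224 and 6324 on FBB1.7 arrays, 5801 and 6082 on FBB1.10 arrays and 5433 and 4961 on FBB1.11 arrays, against 4463 and 4737 in parental cells. All 8 tagged arrays were above both parental arrays, and the FBB1.7 pair was highest. On the log2 scale FBB1.5 exceeded parental by 0.27 ± 0.06 (adjusted p = 0.023), FBB1.7 by 0.45 ± 0.06 (0.00022) and FBB1.10 by 0.37 ± 0.06 (0.0042), while the difference of 0.17 ± 0.06 for FBB1.11 did not pass (0.24). In fold, FBB1.5 stood at 1.20 times parental, FBB1.7 at 1.36, FBB1.10 at 1.29 and FBB1.11 at 1.13. The mean of the 4 subclones exceeded parental by 0.31 ± 0.04 (adjusted p = 0.0019), and that call was lost under 1 of 26 alternatives, the fit without an intensity trend (0.13). The FBB1.5 call was lost without array 1 of parental (0.063) or array 1 or 2 of FBB1.5 (0.051 and 0.21), and after quantile normalization (0.097), and the FBB1.10 call without array 2 of FBB1.10 (0.059) and after quantile normalization (0.051). With the line as a random block the difference was the same 0.31, its standard error 0.08 and its adjusted p 0.36.

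Hspe1 (chromosome 1), the HSP10 lid that shares its promoter region with Hspd1, did not pass in any subclone. Probe set 1450668_s_at read 2425 and 2512 on FBB1.5 arrays, 2743 and 2745 on FBB1.7 arrays, 2392 and 2396 on FBB1.10 arrays and 2449.8 and 2437 on FBB1.11 arrays, against 2404 and 2730.3 in parental cells. By this probe set the parental arrays spanned nearly the whole range of the tagged ones. The difference was 0.10 in FBB1.7, with a 95% interval of -0.04 to 0.24, and -0.10 in FBB1.10, with an interval of -0.24 to 0.04. Its other probe set, 1422579_at, gave the same 0.10 and -0.10, with 1207 and 1230 in FBB1.7 against 1149 and 1120 in parental cells. There the FBB1.7 arrays lay above both parental arrays, and all arrays of the other subclones lay below both. The Hspd1 intervals, 0.33 to 0.57 in FBB1.7 and 0.25 to 0.49 in FBB1.10, lay above those of 1450668_s_at, and the difference between the genes was not tested.

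**Figure D3:**
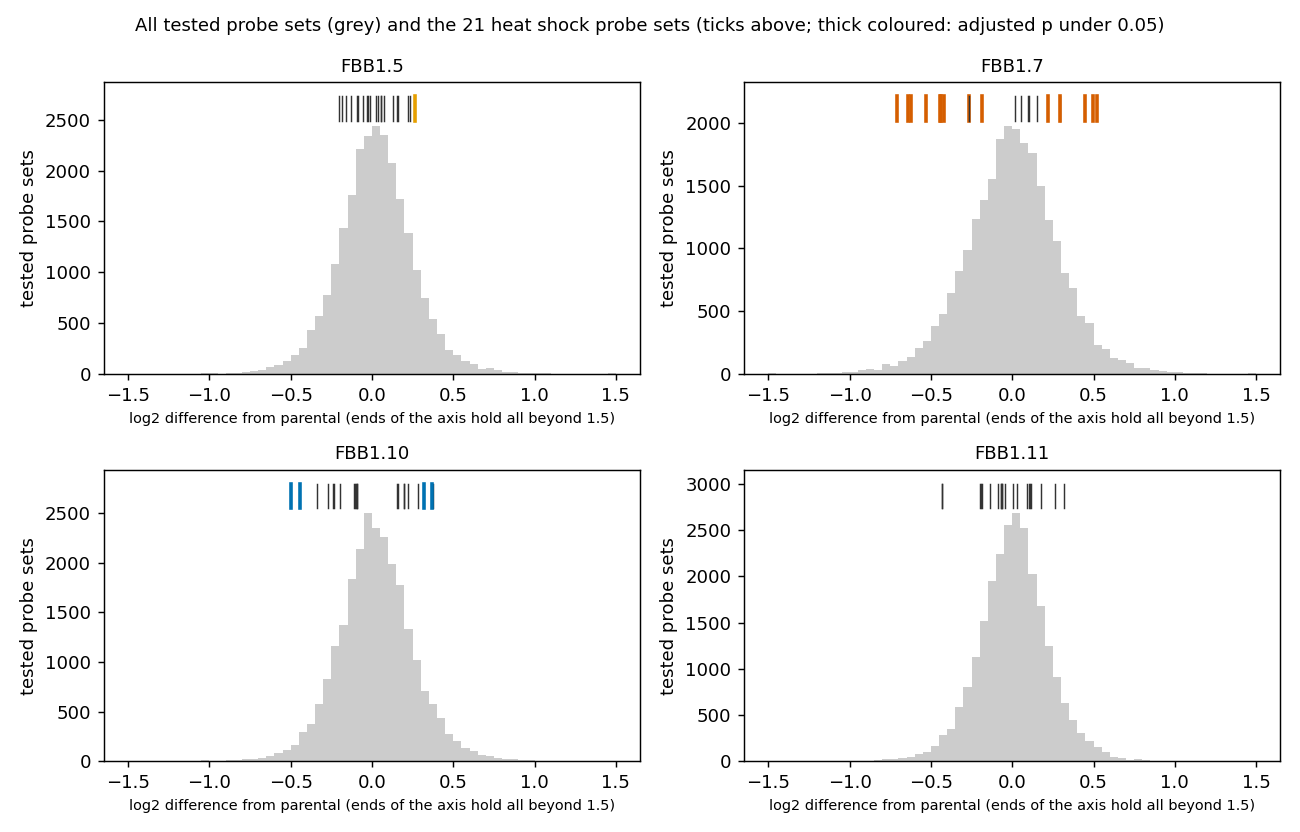
Number of tested probe sets (vertical axis) by log2 difference from parental for each subclone, with the 21 member probe sets as ticks above the histogram, thick and coloured where the adjusted p passed 0.05. Differences beyond 1.5 are held at the ends of the axis. In FBB1.7 the member ticks spread from -0.71 to 0.52, on both sides of a background centred on 0.00.

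The second question is how far the subclones, which carry 1 construct, differ among themselves. A moderated F test over the 4 subclones called 10 of 21 member probe sets, of 6 genes, against 7.24% called over all probe sets, and 10 of 18 against 17% among those with a mean intensity over 200. The adjusted p was 0.00049 and 0.0023 for the Hsph1 probe sets and 0.00070, 0.0043 and 0.041 for the bright ones of Hspa8. Hspa4 (0.011 and 0.0073), Hsp90aa1 by 1426645_at (0.038), Dnaja1 by 1459835_s_at (0.015) and Hspd1 (0.025) passed as well, while no probe set of Dnajb1 or Hspe1 did. Without FBB1.5 or without FBB1.7 the count was 3 of 21, it was 6 without either array of FBB1.7 or with no filter on dim probe sets, and it was 2 without an intensity trend. Without FBB1.5 both Hsph1 calls were lost (0.28 and 0.32), and without FBB1.7 all 3 Hspa8 calls were (0.15 to 0.27). Without FBB1.7 Dnaja1 stood at 0.64, Hsp90aa1 at 0.48 and Hspd1 at 0.23. Leaving out single arrays also ended the calls of Hspa8 1455789_x_at (7 of 10 arrays, 0.062 to 0.25), Hsp90aa1 (7 of 10, 0.057 to 0.20), Hspd1 (4 of 10, 0.058 to 0.14) and Dnaja1 (either array of FBB1.7, 0.20 and 0.0503).

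By pairs of subclones, FBB1.5 against FBB1.7 gave the most member calls, 12 of 21, against 9.44% called over all probe sets. Hsph1 was higher in FBB1.5 than in FBB1.7 by 0.79 ± 0.09 and 0.75 ± 0.11 (adjusted p = 0.00012 and 0.00045), and Hspa8 1420622_a_at by 0.43 ± 0.05 (0.00014). These 3 calls held under each of 22 alternatives. Hsph1 was also higher in FBB1.5 than in FBB1.10, by 0.59 ± 0.09 (0.0021), and than in FBB1.11, by 0.58 ± 0.09 (0.0038), although the last was lost without array 1 of FBB1.5 (0.066) or either array of FBB1.11 (0.057 and 0.060). Hsp90aa1 1426645_at was lower in FBB1.5 than in FBB1.7, by -0.37 ± 0.08 (0.0069). Against FBB1.10 and FBB1.11, FBB1.5 differed in 5 and 2 of 21 probe sets (3.92% and 1.32% called). FBB1.7 differed from FBB1.11 in 4 of 21 (3.29%), from FBB1.10 in 0 (0.124%), and FBB1.10 from FBB1.11 in 0 (0.267%). At an unadjusted p under 0.05 these last 2 pairs gave 10 and 3 of 21 member probe sets, against 2675 and 2178 of all 25061. By both Hsph1 probe sets FBB1.5 and parental thus lay above FBB1.10 and FBB1.11, whose order differed between the probe sets, and FBB1.7 was lowest. FBB1.10, FBB1.11 and FBB1.7 did not differ from each other beyond the threshold, nor did FBB1.11 and parental.

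Other chaperones outside the endoplasmic reticulum were read in 7 lists, also chosen with earlier results of these data known, each gene by its brightest probe set. In FBB1.7 16 of 76 tested genes passed, 11 higher and 5 lower, against 10.7% called over all genes. Among probe sets with a mean intensity over 200 the share called was 22.4% (11.3% higher and 11.1% lower). Most genes of the J protein, HSP90 co-chaperone, TRiC, mitochondrial and endoplasmic reticulum lists are that bright. For those lists the lower shares over all genes, given below, are therefore not a like comparison. The other members of the HSP70 system, which include nucleotide exchange factors and further HSP70s, gave 0 of 12 calls, with 4 of the 16 listed genes untested and a median difference of -0.15, against -0.02 over all genes. Bag2, a cofactor that blocks ubiquitination by the HSP70 partner CHIP, stood at -0.26 (adjusted p = 0.13), Hspa2, the testis HSP70, at -0.51 (0.057) and Hspa14, a ribosome-associated one, at 0.26 (0.14). Of 16 J proteins 1 was lower in FBB1.7 and 0 were higher, against 6.38% lower and 4.28% higher over all genes. That was Dnajc17, at -0.46 ± 0.11 (0.016), a call lost without array 2 of parental (0.12) or either array of FBB1.7 (0.084 and 0.10), and the list had a median of -0.13. Dnajc9, a J protein that chaperones histones, rose by 0.70 ± 0.11 in FBB1.5 (0.0034), with 657 and 623 in FBB1.5 against 376 and 399 in parental cells, and stood at 0.31 in FBB1.7 (0.084). Dnajc2, which acts at the ribosome, was 0.32 higher in FBB1.5 (0.094).

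Among 10 tested HSP90 co-chaperones, which load clients and time the HSP90 cycle, 3 were higher and 1 lower in FBB1.7, against 4.28% higher and 6.38% lower over all genes, with a median of 0.09. Cacybp was higher by 0.31 ± 0.08 (adjusted p = 0.024) and Chordc1 lower by 0.36 ± 0.09 (0.015). Both calls were lost without array 2 of parental (0.10 and 0.13) or either array of FBB1.7 (0.069 to 0.19). Sugt1, which works with HSP90 at kinetochores and immune receptors, rose in FBB1.5 by 0.73 ± 0.10 (0.0015), with 1235 and 1183 in FBB1.5 against 695 and 747 in parental cells, but its other probe set there stood at 0.31 and did not pass. Of 14 subunits of the TRiC chaperonin and of prefoldin, which fold actin and tubulin, 4 were higher and 2 lower in FBB1.7, against the same shares over all genes, with a median of 0.11. The TRiC subunits Cct3, Cct7 and Cct6a were higher by 0.39 ± 0.07 (0.0026), 0.38 ± 0.07 (0.0041) and 0.31 ± 0.07 (0.0076), the last being lost without array 1 of FBB1.7 (0.088). Cct3 read 3268 and 3399.9 in FBB1.7 against 2413 and 2673 in parental cells.

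Mitochondrial chaperones and proteases other than Hspd1 and Hspe1 gave 4 higher and 1 lower of 13 tested genes in FBB1.7, against 4.28% higher and 6.38% lower over all genes, with a median difference of 0.27. Hspa9, the mitochondrial HSP70 that also serves iron-sulfur cluster assembly, rose by 0.29 ± 0.07 in FBB1.7 (adjusted p = 0.022) and by 0.42 ± 0.07 in FBB1.10 (0.0097), with 3693 and 3419 in FBB1.7 and 4141 and 3673 in FBB1.10 against 3065 and 2748 in parental cells. The FBB1.7 call of Hspa9 was lost without array 2 of parental (0.14) or array 1 of FBB1.7 (0.19), and the FBB1.10 call without array 2 of parental (0.0502) or array 1 of FBB1.10 (0.13). With the actin ratio as a covariate they stood at 0.42 and 0.11. Grpel1, its nucleotide exchange factor, was higher by 0.42 ± 0.08 in FBB1.5 (0.018) and 0.29 ± 0.08 in FBB1.7 (0.039). Without array 1 of parental or array 1 of FBB1.5 the first stood at 0.051 and 0.12, and the second was lost in 8 of 10 cases of leaving out 1 array (0.051 to 0.19), the exceptions being the arrays of FBB1.5. Hscb, the J protein that hands iron-sulfur clusters to client proteins with Hspa9, fell by 0.67 ± 0.12 in FBB1.7 (0.0035), a call that held under each of 22 alternatives, with 199.7 and 203 in FBB1.7 against 354 and 305 in parental cells. In FBB1.10 Hscb fell by 0.55 ± 0.12 (0.037). The Hscb call in FBB1.10 was lost without either array of FBB1.7, FBB1.10 or FBB1.11 or without array 1 of parental (0.060 to 0.18).

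Of the heat shock factor list Hsf2, Hsf4, Hsf5 and Hsbp1 were tested, and none of these 4 was called in FBB1.7, FBB1.10, FBB1.5 or FBB1.11, while Hsf1 was not analysed here. Of the small heat shock proteins, chaperones that hold unfolded proteins without ATP, 0 of 7 were called in any of the 4 subclones. The share called over all genes was 10.7% for FBB1.7 and only 0.184% for FBB1.11. All 7 read 203.5 or below on every array, and Hsf2, Hsf4 and Hsf5 read 91.8 or below. Dim probe sets were called less often, so for such short lists a count of 0 does not show an absence of change. In FBB1.7 Hsf2 stood at 0.19 (adjusted p = 0.52) and Hspb6 at 0.36 (0.14). Chaperones of the endoplasmic reticulum fold secreted and membrane proteins, and their list was also chosen with earlier results of these data known. Of 18 tested, 8 were higher and 0 lower in FBB1.7, where 10.7% of all genes were called and 4.28% were higher. In FBB1.10 7 were higher and 0 lower, where 1.8% of all genes were called and 0.936% were higher. Among probe sets with a mean intensity over 200, 11.3% were higher in FBB1.7 and 3.35% in FBB1.10. The median of the list was 0.36 in FBB1.7 and stood at 0.39 for FBB1.10. For FBB1.5, where 1 was higher against 1.38% higher over all genes, it was 0.03. In FBB1.11 0 were called, against 0.184% of all genes, and the median of the list was 0.14. Hsp90b1, their HSP90, read 1762 and 1797 in FBB1.7 against 984 and 1042 in parental cells, a difference of 0.80 ± 0.07 (adjusted p = 2.0e-05), while Hsp90aa1 of the cytosol rose by 0.52 at most by any probe set. Whether these lists differ from each other was not tested.

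**Figure D4:**
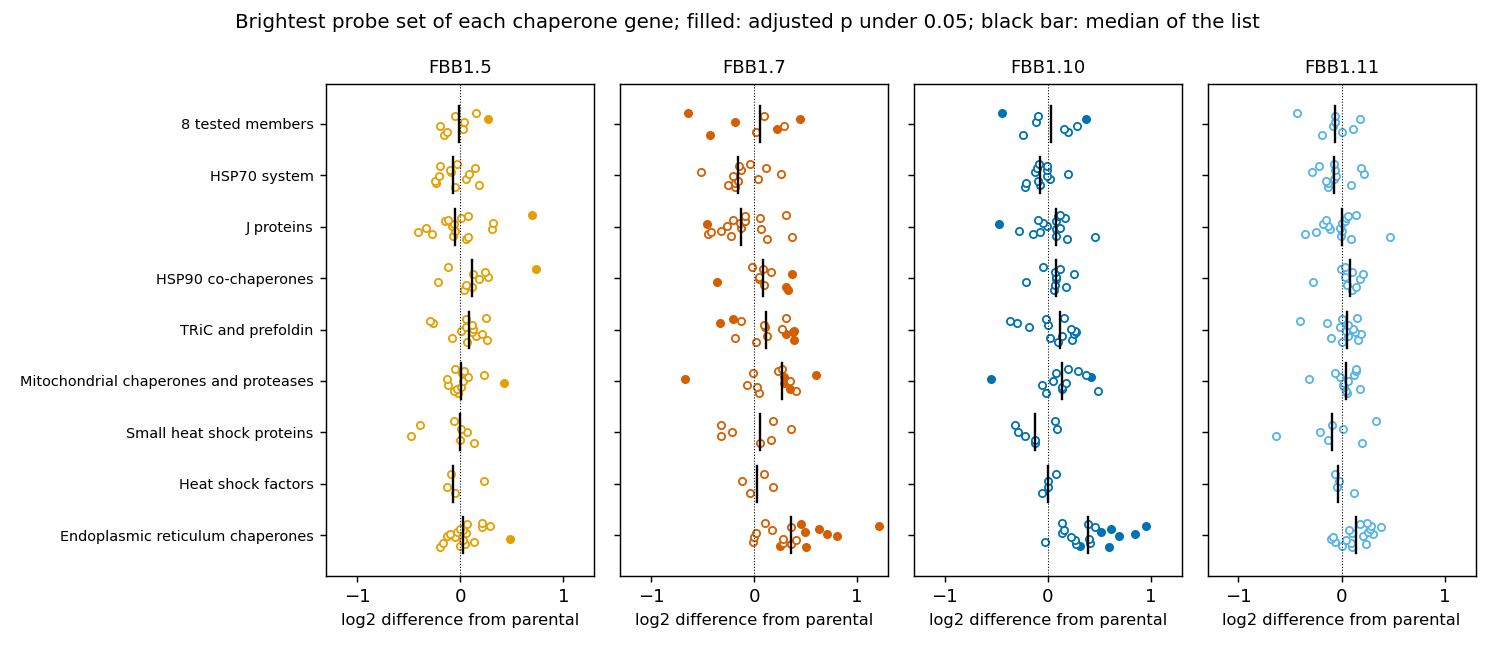
Difference from parental on the log2(intensity + 16) scale for each gene of the chaperone lists by its brightest probe set, 1 panel for each subclone, filled where the adjusted p passed 0.05 and with a bar at the median of each list. In FBB1.7 the endoplasmic reticulum genes have a median of 0.36 and the other mitochondrial chaperones one of 0.27, while the HSP70 system lies at -0.15.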

How the data were processed

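RNA of 5 mouse cell lines was read on 10 arrays, 2 for each line. Per the labels' protocols, cDNA primed on poly(A) was transcribed into biotin-labelled cRNA and stained through streptavidin. The authors deposited 1 linear intensity for each probe set and array, and the labels do not say how they corrected, summarised and scaled these. Values were taken as log2(intensity + 16) without further normalization, since array medians spanned 0.06 on the log2 scale. Each of 25061 probe sets above 30.5 on at least 2 arrays was tested, 64 control probe sets were left out, and the number of arrays limits the precision. limma 3.58.1 in R 4.3.3 with its prior variance following the mean intensity, and with p-values adjusted by Benjamini-Hochberg over all tested probe sets at 0.05, was used in 2 fits. One held the line as a random block (consensus correlation 0.211, with statmod 1.5.0) and the other held 5 line means with 5 residual degrees of freedom. The procedure was tested on simulated data. Of 45101 probe sets 34945 carried 1 gene symbol, 932 several and 9224 none, and the annotation can be old. Each gene of a list was read by its brightest tested probe set, and up to 3 genes of a list, those with the smallest p in any comparison, were named. The pairs of subclones were compared in the same fit, a test added after the values were seen. The 10 genes and the other lists were chosen with earlier results of these data known. In all 27 alternatives were tried, among them other pseudocounts, filters and scalings, arrays and subclones left out, and a replicate block. Figures were drawn with matplotlib 3.10.9.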

Additional observations from a re-analysis of the deposited data

Results flagged for a closer look

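The moderated F test in limma, which compares the 4 subclones with each other, passed for 10 of 21 member probe sets. The Hsph1 probe sets 1425993_a_at and 1423566_a_at had adjusted p-values of 0.00049 and 0.0023, with FBB1.5 the highest and FBB1.7 the lowest line in both. Hspa8 had 0.00070 for 1420622_a_at, 0.0043 for 1420623_x_at and 0.041 for 1455789_x_at, with FBB1.7 lowest. Hspa4 had 0.011 for 1416146_at and 0.0073 for 1435194_at, with FBB1.7 and FBB1.10 the highest subclones in the first and the lowest in the second. Hsp90aa1 1426645_at had 0.038, Dnaja1 1459835_s_at 0.015 and Hspd1 1426351_at 0.025. FBB1.7 was the highest line for Hsp90aa1 and Hspd1 and the lowest for Dnaja1. The cause of these differences was not tested.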

How the results depend on the processing

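Among the alternatives run, no called member value changed its sign. The fit without an intensity trend gave the lowest counts in most comparisons: 25 probe sets for the mean of the subclones, 22 for FBB1.5, 1187 for FBB1.7, 1 for FBB1.10, 8 for FBB1.11 and 483 for the F test, against 887, 507, 2519, 450, 47 and 1814 in the reported fits. Members called were then 0, 0, 6, 0, 0 and 2. With no filter on dim probe sets the counts in the same order were 334, 201, 1628, 119, 16 and 985, with 3, 0, 10, 2, 0 and 6 members, and the block fit called 1. With arrays as independent samples the block fit called 3. With the actin ratio as a covariate 198 probe sets and 2 members were called for the mean, 859 and 6 for FBB1.7, 125 and 1 for FBB1.10, and 16 for FBB1.11. A pseudocount of 1 gave 31 in FBB1.11. Quantile normalization called 0 members in FBB1.5 and 1 in FBB1.11.

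Leaving out 1 array or subclone gave 0 to 128 probe sets in the block fit, 189 to 1468 for the mean (1 to 9 members), 184 to 810 for FBB1.5 (0 to 1), 859 to 2637 for FBB1.7 (8 to 14), 108 to 1194 for FBB1.10 (0 to 4), 10 to 435 for FBB1.11 (0 to 1) and 538 to 2402 for the F test (3 to 12). Without array 2 of parental and array 1 of FBB1.5, those with the highest actin ratio, a choice made after seeing the data, the counts were 3, 550, 353, 2002, 350, 157 and 1842, with 0, 5, 1, 12, 3, 2 and 9 members.

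Same-numbered arrays had deviations that correlated at -0.16 to 0.18 over the 10 pairs of lines, so the numbers were not taken to pair the arrays. With the number as a replicate block FBB1.11 gave 121 probe sets and 1 member, FBB1.7 2494 and 14, and the mean 961 and 6. The share of calls that were higher in the tagged cells was 56.0% for the mean (43.4% after median centring), 63.7% for FBB1.5 (53.7% after quantile normalization), 60.0% for FBB1.10 (46.7% after quantile normalization and 48.7% after median centring) and 40.4% for FBB1.11 (29.4% and 30.5%).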

Other observations

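The mean profile of the 8 tested genes, each centred over the 10 arrays, was nearly flat, from -0.08 to 0.05 on the log2 scale, since Hsph1, Hspa8 and Dnaja1 ran against Hsp90aa1 and Hspd1. Of 3781 other genes with an SD of at least 0.2 on that scale, those with the profile most like it were Klf5 (Pearson's r 0.90), Hexa (0.85), Serinc3 (0.84), Bex4 (0.83) and Nrgn (0.83). These describe 10 arrays of 5 lines that share their lines and any array effects, and they were the highest of many.

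Summed intensities of 10 measured erythroid markers were 7756 and 8287 on FBB1.5 arrays, 6938 and 6792 on FBB1.7 arrays, 7309 and 7706 on FBB1.10 arrays and 8454 and 8145 on FBB1.11 arrays, against 7242 and 7945 in parental cells. The FBB1.7 pair, in which Hsph1 and Hspa8 were lowest, was thus lowest here as well, and the part of this in the heat shock values was not tested.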
